A study of Mus musculus with 16 samples.

Results

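The sarcomeric myosin heavy chain genes Myh1, Myh2, Myh3, Myh4, Myh7, Myh7b and Myh8 and the antisense RNA Myhas were followed across 15 RNA-seq libraries of mouse plantaris muscle, a fast ankle plantar flexor. They are 8 of the 17230 genes in the deposited count table, chosen by name. The symbols of 7 were in the table, and Myhas was found by its Ensembl identifier. All 8 passed the filter on low counts, as did 17212 genes in all.

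A myosin heavy chain is the motor of the thick filament, and the isoform that a fibre makes sets much of how fast it shortens. Adult mouse limb fibres are classed by it: Myh7 marks slow type I fibres, Myh2 type IIA, Myh1 type IIX and Myh4 type IIB, the fastest. Myh3 (embryonic) and Myh8 (perinatal) are made in developing and regenerating fibres, and Myh7b is a divergent relative of Myh7 that hosts a microRNA gene. Myhas is a noncoding RNA made from the stretch between Myh1 and Myh4, on the strand opposite to both. In overloaded limb muscle, adult fibres are known to shift away from the fastest isoform.

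The libraries came from mice of 9 to 12 weeks and fell into 4 groups by genotype, TRIM28 mKO (KO) or Wild Type (WT), and surgery, myotenectomy (MTE), which loads the plantaris mechanically, or a sham operation (Sham). The groups were KO MTE (n = 4), WT MTE (n = 4), KO Sham (n = 3) and WT Sham (n = 4), and the 3 KO Sham libraries are called columns 1 to 3 because their numbers could not be tied to labelled samples. The sources used here do not say how the knockout was made, in which cells it acts or how long the overload lasted. All 4 groups underwent surgery, so none shows the muscle of unoperated mice. TRIM28 is a corepressor of transcription, brought to DNA by zinc finger proteins.

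Totals ran from 21.1 M to 69.2 M counts per library. In CPM (counts scaled to a common library size, with TMM factors), Trim28 was at 18.0 to 30.3 in KO MTE against 35.3 to 60.9 in WT MTE, and 5.39 to 12.7 in KO Sham against 27.8 to 49.0 in WT Sham, with no overlap. Summed CPM of 5 skeletal muscle markers (Acta1, Ckm, Des, Mb and Ttn) were between 79888 and 253773 in every library, and those of the cardiac markers Myh6, Nppa and Tnni3 between 1.26 and 5.29. WT Sham 1 and KO Sham column 3 stood apart. WT Sham 1 had 3121 summed CPM of 7 macrophage markers, where WT Sham 2 to 4 had 244 to 333, and mitochondrial genes made up 6.95% of its counts, where WT Sham 2 to 4 had 13.3% to 14.4%. KO Sham column 3 had 20.5% mitochondrial counts, against 11.3% and 12.2% in columns 1 and 2. In such whole-muscle RNA, fewer fibres of a type and less RNA per fibre cannot be told apart.

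The fast and developmental genes lie side by side on chromosome 11 (GRCm38, GENCODE M21), in the order Myh3 (chr11:67078300-67102291), Myh2 (chr11:67171027-67197517), Myh1 (chr11:67200052-67224575), Myh4 (chr11:67238029-67260446) and Myh8 (chr11:67277124-67308634), all on the plus strand. Myhas (chr11:67211256-67237573) runs on the minus strand. Myh7 lies apart at chr14:54970684-54994626 on the minus strand and Myh7b at chr2:155611212-155634307 on the plus strand. The spans of Myhas and Myh1 overlap by 13320 bases in this annotation, and 515 of the 2027 exon bases of Myhas lie over Myh1 exons. None lie over Myh4 exons. The kit kept strand information, but the sources used here do not say whether the counting used it, and reads of Myhas and Myh1 may have been mixed.

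The coding sequences of the fast and developmental genes are alike enough to share reads, and the longest runs of identical bases are shown because counts there cannot be assigned to 1 gene by sequence. Myh1 and Myh2 share a run of 268 bases (coding bases 2711 to 2978 of both, GENCODE M21), and Myh1 and Myh4 share 161 bases (3250 to 3410 of Myh1, 3241 to 3401 of Myh4).
Myh1 and Myh2: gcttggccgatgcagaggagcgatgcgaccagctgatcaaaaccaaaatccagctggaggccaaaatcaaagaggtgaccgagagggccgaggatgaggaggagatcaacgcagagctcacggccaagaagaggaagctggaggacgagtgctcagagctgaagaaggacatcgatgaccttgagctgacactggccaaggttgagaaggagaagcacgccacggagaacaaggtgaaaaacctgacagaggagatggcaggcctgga
Myh1 and Myh4: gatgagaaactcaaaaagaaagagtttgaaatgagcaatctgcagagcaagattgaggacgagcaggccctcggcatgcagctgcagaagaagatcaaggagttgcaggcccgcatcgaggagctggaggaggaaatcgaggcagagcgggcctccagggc
Of all stretches of 100 coding bases, 9.87% of those in Myh1, 9.57% in Myh2, 5.48% in Myh8 and 3.99% in Myh4 were identical to a stretch of another of the 7 coding genes, against 0 in Myh3, Myh7 and Myh7b. With 50 bases the shares were 27.9% for Myh2, 27.2% for Myh1, 21.1% for Myh8, 19.2% for Myh4, 3.79% for Myh3 and 0 for Myh7b.

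A counting tool that divides reads between similar genes gives counts that are not whole. Counts of Myh2, Myh4 and Myh7 were whole numbers (within 0.01) in 0 of 15 libraries, those of Myh8 in 1, of Myh1 in 2 and of Myh3 in 10. Counts of Myh7b and Myhas were whole in 15 of 15. Values of Myh1, Myh2, Myh4 and Myh8 are uncertain to the extent of such division. Myh7 also had no whole count, although 0.226% of its stretches of 50 coding bases match the other 6. Which genes share its reads was not tested.

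Promoter windows (RefSeq, GRCm38.p6, 250 bases before to 50 after each start, all 8 members matched) are shown for the pair that fell together under overload, Myh4 and Myhas, the pair that rose together, Myh3 and Myh8, and Myh1, the adult gene with the widest gap between genotypes. The windows are Myh4 at chr11:67237562-67237861 (plus strand), Myhas at chr11:67237232-67237531 (minus), Myh3 at chr11:67078050-67078349 (plus), Myh8 at chr11:67276874-67277173 (plus) and Myh1 at chr11:67199852-67200151 (plus).
Myh4: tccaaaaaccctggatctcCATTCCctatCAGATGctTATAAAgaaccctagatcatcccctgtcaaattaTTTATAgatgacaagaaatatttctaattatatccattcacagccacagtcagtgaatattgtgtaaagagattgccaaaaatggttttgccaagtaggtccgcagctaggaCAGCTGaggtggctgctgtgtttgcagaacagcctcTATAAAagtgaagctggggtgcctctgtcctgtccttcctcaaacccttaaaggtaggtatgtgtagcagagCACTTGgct
Myhas: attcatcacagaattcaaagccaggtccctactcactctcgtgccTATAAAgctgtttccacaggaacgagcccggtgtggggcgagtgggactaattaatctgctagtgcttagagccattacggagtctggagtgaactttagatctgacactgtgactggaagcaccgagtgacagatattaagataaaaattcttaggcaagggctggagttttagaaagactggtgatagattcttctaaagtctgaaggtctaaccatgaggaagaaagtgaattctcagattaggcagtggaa
Myh3: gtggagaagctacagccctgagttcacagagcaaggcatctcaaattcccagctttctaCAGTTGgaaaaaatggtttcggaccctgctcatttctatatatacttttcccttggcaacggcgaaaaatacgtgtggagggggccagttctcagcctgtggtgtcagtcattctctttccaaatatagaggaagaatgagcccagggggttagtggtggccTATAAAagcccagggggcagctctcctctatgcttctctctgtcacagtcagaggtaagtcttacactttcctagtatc
Myh8: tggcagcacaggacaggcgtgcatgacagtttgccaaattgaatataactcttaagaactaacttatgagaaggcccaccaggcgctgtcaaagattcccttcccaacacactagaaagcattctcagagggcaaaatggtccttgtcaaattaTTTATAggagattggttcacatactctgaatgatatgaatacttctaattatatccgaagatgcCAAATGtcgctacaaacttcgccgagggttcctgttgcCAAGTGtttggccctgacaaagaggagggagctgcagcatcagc
Myh1: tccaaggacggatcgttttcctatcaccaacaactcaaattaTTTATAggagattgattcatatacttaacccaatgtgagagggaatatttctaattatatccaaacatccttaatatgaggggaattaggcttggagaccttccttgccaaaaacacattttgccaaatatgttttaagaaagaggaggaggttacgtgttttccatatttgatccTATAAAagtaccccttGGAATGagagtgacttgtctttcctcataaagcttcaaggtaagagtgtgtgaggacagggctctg
Capitals mark matches, on either strand, to TATAAA (the TATA box), CANNTG (the E-box, bound by MyoD and myogenin) and CATTCC (the MCAT element, bound by TEAD factors). None of the 24 matches in the members' windows overlapped another match of the same window. The windows of Myh7 overlap, so its 2 E-boxes were counted in each. TATAAA began 31 bases before the start in Myh4, 29 before it in Myh3 and 32 before it in Myh1. It was in 13.6% of 32851 mouse promoter windows of this length, at any position and on either strand. The share of windows with it at such distances was not counted. CANNTG was in 72.3% of all windows and CATTCC in 14.7%, and the Myhas window held neither. The core of the MEF2 motif was in 3.69% of all windows and in 0 of the members'. The RefSeq starts of Myhas and Myh4 are 531 bases apart and point away from each other.

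Per kilobase of annotated exon, the 3 highest members in every group were Myh4, Myh1 and Myh2, in differing order. In KO MTE, Myh4 (1142 ± 354 CPM per kb; SD, n = 4), Myh1 (948 ± 506) and Myh2 (659 ± 238) overlapped one another. In WT MTE the order was led by Myh1 (2825 ± 528) and Myh4 (1679 ± 411), which overlapped, then Myh2 (833 ± 143), whose range did not reach that of Myh4. Myh3 (29.5 ± 11.7) and Myh8 (15.2 ± 5.24) stood above Myh7 (11.04 ± 2.75) there, with overlap among all 3. Before division by length, Myh3 and Myh8 each had a mean of 179 CPM in WT MTE and Myh7 of 95.1 CPM. Annotated exons cover 6057 bases in Myh3, 11772 in Myh8 and 8616 in Myh7, though the coding lengths are alike (5820, 5811 and 5805). The values per kb of these genes therefore depend in part on the annotation. In KO Sham the order was Myh4 (3892 ± 279; n = 3), Myh1 (992 ± 420) and Myh2 (456 ± 61.6), with no overlap between neighbours. In WT Sham it was Myh4 (5582 ± 301), Myh1 (2774 ± 1095), Myh2 (605 ± 79.8), Myh7 (19.1 ± 8.63), Myh3 (6.96 ± 1.56), Myhas (4.56 ± 1.23), Myh8 (1.35 ± 0.619) and Myh7b (0.334 ± 0.0812), where Myh7 overlapped Myh3 and Myh3 overlapped Myhas.

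**Figure D1:**
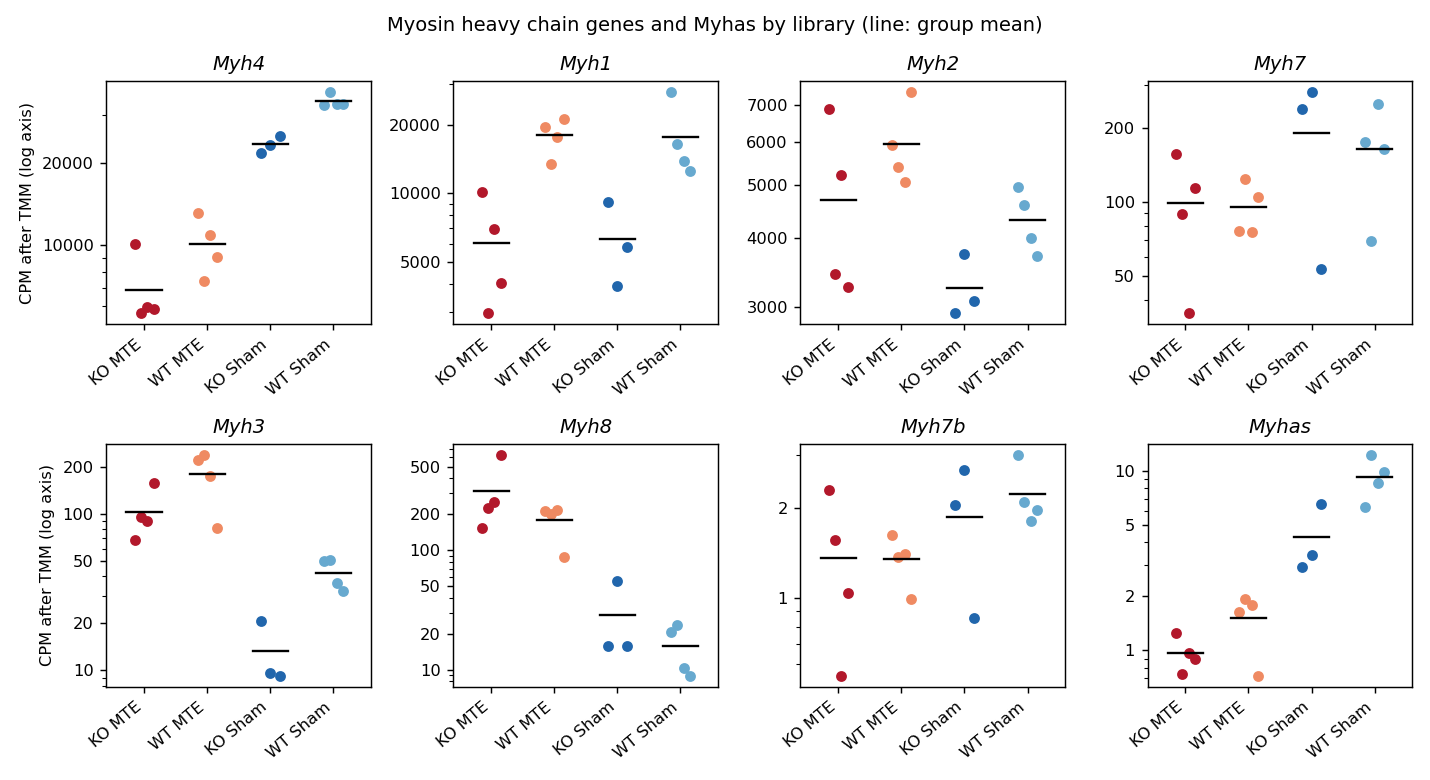
CPM after TMM scaling of the 8 members in each library, on log axes that differ between panels, with 1 point per library and a line at the group mean (n = 4, 4, 3 and 4 for KO MTE, WT MTE, KO Sham and WT Sham). Myh4 and Myhas sit lower and Myh3 and Myh8 higher in MTE than in Sham within each genotype, and Myh1 sits lower in KO than in WT within each surgery.

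The first question was how overload changed the set in each genotype. In both genotypes the IIB gene Myh4 and its divergent neighbour Myhas fell, the developmental genes Myh3 and Myh8 rose, and the other adult genes, Myh1, Myh2 and Myh7, were not called. In WT MTE against WT Sham, 4 of 8 members were called, 2 higher and 2 lower, where 25.3% of all genes tested were called (14.1% higher, 11.2% lower). In KO MTE against KO Sham the same 4 members were called in the same directions, where 25.9% of all genes were called (13.2% higher, 12.7% lower). The median log2 fold change of the members was -0.35 in WT and -0.27 in KO, against 0.04 and 0.04 over all genes tested. The call is an adjusted p under 0.05 in edgeR's quasi-likelihood test with Benjamini-Hochberg adjustment over all genes, and each log2 fold change is given with its standard error (SE).

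Myh4 had 10062, 5644, 5928 and 5858 CPM in KO MTE and 21781, 23321 and 25134 CPM in KO Sham. In WT it had 13134, 7378, 10877 and 9022 CPM in MTE and 32413, 36281, 32926 and 32696 CPM in Sham. Every MTE library was below every Sham library, of either genotype. The log2 fold change was -1.77 ± 0.24 in KO (3.41-fold lower; adjusted p = 0.000423) and -1.73 ± 0.23 in WT (3.32-fold lower; adjusted p = 0.000178).

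Myhas, at far lower levels, moved with it. It had 1.25, 0.740, 0.974 and 0.895 CPM in KO MTE against 2.92, 3.39 and 6.49 CPM in KO Sham, and 1.64, 1.93, 1.80 and 0.723 CPM in WT MTE against 6.30, 12.3, 8.55 and 9.83 CPM in WT Sham. The groups did not overlap in either genotype. These values rest on 37 to 60 counts per KO MTE library, 19 to 90 per WT MTE library, 106 to 134 per KO Sham library and 204 to 381 per WT Sham library. The log2 fold change was -2.13 ± 0.35 in KO (adjusted p = 0.00123) and -2.59 ± 0.34 in WT (adjusted p = 0.000146). Over the 15 libraries the log2 CPM of Myhas and Myh4 had a Pearson r of 0.940, given as a description, since the libraries share the surgery groups. Myh1, whose exons Myhas overlaps, had an r of 0.306 with it.

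Myh3, the embryonic gene, had 68.4, 95.2, 89.3 and 158 CPM in KO MTE against 20.8, 9.69 and 9.25 CPM in KO Sham. In WT it had 222, 238, 174 and 80.7 CPM in MTE against 50.1, 50.4, 36.1 and 32.1 CPM in Sham. All MTE libraries of a genotype lay above all its Sham libraries. The log2 fold change was 2.95 ± 0.42 in KO (7.72-fold higher; adjusted p = 0.000503) and 2.08 ± 0.36 in WT (4.24-fold higher; adjusted p = 0.000977).

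Myh8, the perinatal gene, had 154, 224, 255 and 630 CPM in KO MTE against 15.7, 55.4 and 15.8 CPM in KO Sham. In WT it had 212, 201, 217 and 87.3 CPM in MTE against 20.6, 23.5, 10.4 and 8.92 CPM in Sham. KO MTE 4 was the highest library and KO Sham column 2 the highest of the Sham libraries, and MTE and Sham did not overlap. The log2 fold change was 3.44 ± 0.62 in KO (10.9-fold higher; adjusted p = 0.0021) and 3.50 ± 0.56 in WT (11.3-fold higher; adjusted p = 0.000542).

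Among the adult genes that were not called, Myh1 (IIX) had log2 fold changes of -0.07 ± 0.41 in KO and 0.03 ± 0.38 in WT, with groups that overlapped. The sign in WT turned with the scaling, and the log2 fold change was -0.03 with DESeq2's size factors. Myh2 (IIA) had 6872, 3444, 5225 and 3261 CPM in KO MTE against 2928, 3754 and 3080 CPM in KO Sham, and 5925, 5402, 5067 and 7378 CPM in WT MTE against 4968, 4602, 4002 and 3710 CPM in WT Sham. In WT every MTE library exceeded every Sham library, yet the log2 fold change of 0.46 ± 0.23 missed the threshold (adjusted p = 0.168), as did 0.53 ± 0.25 in KO (adjusted p = 0.132).

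Myh7 (slow) had 158, 89.2, 35.3 and 115 CPM in KO MTE against 239, 281 and 53.3 CPM in KO Sham, and 76.0, 124, 75.3 and 105 CPM in WT MTE against 176, 69.1, 250 and 164 CPM in WT Sham. The ranges overlapped in both genotypes, and the libraries of 1 group differed by as much as the groups (log2 fold changes -0.95 ± 0.53 in KO and -0.79 ± 0.50 in WT; adjusted p = 0.193 and 0.268). Myh7b stayed between 0.548 and 3.01 CPM throughout, with 14 to 126 counts per library. Its log2 fold change was -0.48 ± 0.42 in KO and -0.72 ± 0.39 in WT, where the groups did not overlap but the test was not passed (adjusted p = 0.202). By ranges alone, 3 members were higher and 3 lower without overlap in WT (13.7% and 11% of all genes), and 2 higher and 2 lower in KO (19.9% and 16.2%).

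**Figure D2:**
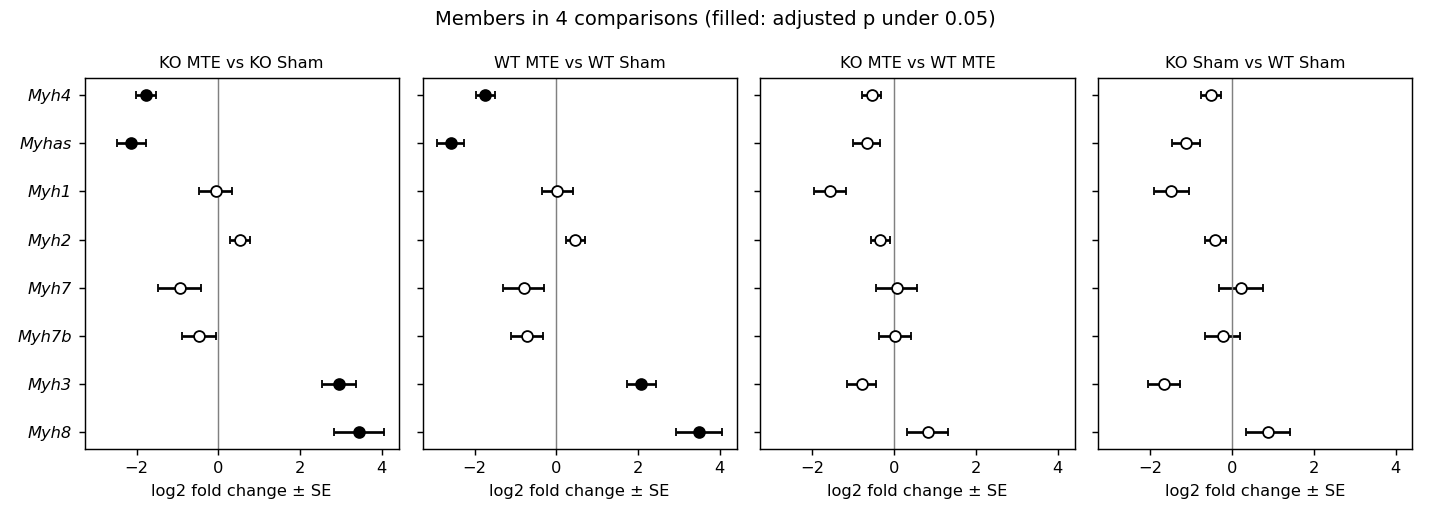
Log2 fold changes with SE of the 8 members in 4 comparisons (edgeR, first-named group over the second), filled where the adjusted p was under 0.05. Myh4, Myhas, Myh3 and Myh8 are filled in both overload comparisons, and no member is filled in the genotype comparisons, where Myh1 lies at -1.58 in MTE and -1.48 in Sham.

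Markers of other cells moved with the overload, where 13.2% of all genes tested were called higher in KO and 14.1% in WT. Of 4 fibroblast markers (Pdgfra, Col1a1, Col3a1 and Dpt), 3 rose in KO and 4 in WT, with sums of 6003 to 9869 CPM in KO MTE, 4723 to 13373 CPM in WT MTE, 332 to 1355 CPM in KO Sham and 579 to 1540 CPM in WT Sham. Of 7 macrophage markers, 4 rose in KO and 1 in WT, with sums of 799 to 937 CPM in KO MTE, 1104 to 1514 CPM in WT MTE, 117 to 279 CPM in KO Sham and 244 to 3121 CPM in WT Sham. None of these markers was at 0 in any library. Of the 5 skeletal muscle markers, 1 rose in KO and 0 in WT. Of 4 smooth muscle markers, 3 rose in KO and 2 in WT. Mitochondrial genes made up 7.09% to 9.01% of counts in KO MTE and 6.21% to 8.97% in WT MTE, against 11.3% to 20.5% in KO Sham and 6.95% to 14.4% in WT Sham. The part of these in the myosin changes was not tested.

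The second question was whether the genotypes differed. No member was called in KO Sham against WT Sham, where 0.511% of all genes tested were called (0.331% higher, 0.18% lower), or in KO MTE against WT MTE, where 1.47% were called (1.21% higher, 0.256% lower). At an unadjusted p under 0.05 in edgeR's quasi-likelihood test there were 3 in MTE (Myh1, Myh3 and Myh4), where 12.7% of all genes passed, and 3 in Sham (Myh1, Myh3 and Myhas), where 10.8% passed. The largest difference in MTE was that of Myh1, the IIX gene. Myh1 had 10138, 2977, 6934 and 4035 CPM in KO MTE against 19574, 13421, 17613 and 21185 CPM in WT MTE. Its levels were 9179, 3902 and 5820 CPM in KO Sham against 27774, 16372, 13839 and 12502 CPM in WT Sham. All 7 KO libraries lay below all 8 WT libraries.

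The log2 fold change of Myh1 was -1.58 ± 0.39 in MTE (2.98-fold lower in KO; adjusted p = 0.0637) and -1.48 ± 0.43 in Sham (2.80-fold lower in KO; adjusted p = 0.191). Both missed the threshold in edgeR with all 15 libraries. DESeq2 placed both past it (adjusted p = 0.00184 in MTE and 0.0167 in Sham), limma voom placed the one in MTE past it (adjusted p = 0.032), and so did a fit without KO MTE 1 (log2 fold change -1.95; adjusted p = 0.0251) or without WT Sham 1 (-1.56; adjusted p = 0.0327). In the authors' deposited table, the FDR-adjusted p of Myh1 for Sham was 0.0494. Its p for genotype over both surgeries, from a 2-way analysis of variance and not labelled as adjusted, was 0.000214. That analysis of variance gave a genotype p of 0.00249 for Myhas, 0.00445 for Myh3, 0.0417 for Myh8 and 0.0494 for Myh2. It gave 0.383 for Myh7b and 0.843 for Myh7, and the p of Myh4 is given below.

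Myh3 in Sham came nearest after it. It was 9.25 to 20.8 CPM in KO Sham against 32.1 to 50.4 CPM in WT Sham, without overlap, at a log2 fold change of -1.66 ± 0.40 (adjusted p = 0.0918). Without WT MTE 4, which lies in neither group but enters the shared spread, its adjusted p was 0.0491, and with DESeq2 it was 0.0019. The authors' deposited table gives an FDR-adjusted p of 0.00169. In MTE the ranges of Myh3 overlapped (log2 fold change -0.80 ± 0.35; adjusted p = 0.346).

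Myh4 was lower in every KO Sham library than in every WT Sham library, 21781 to 25134 CPM against 32413 to 36281 CPM, with a log2 fold change of -0.52 ± 0.25 (adjusted p = 0.471). In MTE it was -0.56 ± 0.23 with overlapping ranges (adjusted p = 0.306). The authors' deposited table gives Myh4 an FDR-adjusted p of 0.771 for Sham and a p of 0.000811 for genotype over both surgeries. Myhas had log2 fold changes of -0.67 ± 0.33 in MTE and -1.13 ± 0.35 in Sham (adjusted p = 0.42 and 0.248), and the one in Sham was -1.71 when WT Sham 1 and column 3 of KO Sham were both left out (adjusted p = 0.0252).

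Of the rest, Myh2 had log2 fold changes of -0.34 ± 0.23 in MTE and -0.41 ± 0.25 in Sham, Myh8 of 0.82 ± 0.50 and 0.87 ± 0.54, Myh7 of 0.06 ± 0.50 and 0.21 ± 0.53, and Myh7b of 0.01 ± 0.39 and -0.23 ± 0.42. Myh8 in Sham rested on column 2, without which it was -0.01. By ranges alone, 1 member was lower without overlap in KO MTE (6.74% of all genes; 0 members higher, 5.58% of all genes) and 3 in KO Sham (2.93% of all genes; 0 higher, 4.54%). The median log2 fold change of the members was -0.45 in MTE and -0.46 in Sham, against -0.06 and -0.01 over all genes tested. The 4 comparisons share groups pairwise, so their values are not independent of one another.

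Whether overload acted differently in the genotypes was tested as an interaction (the log2 fold change in KO less that in WT). No member and 0% of all genes were called in edgeR, with 0 members and 605 of 17212 genes (3.51%) at an unadjusted p under 0.05, and DESeq2 called 10 genes and no member. The interaction was 0.87 ± 0.52 for Myh3, 0.46 ± 0.48 for Myhas, -0.04 ± 0.33 for Myh4 and -0.06 ± 0.74 for Myh8 on the log2 scale. No difference between the overload responses was detected for any member. The SE ran from 0.33 for Myh4 to 0.74 for Myh8. Differences of that size and well above it could have been missed.

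The composition of the set was followed as the share of each gene in the summed counts of the 7 coding genes, which needs no scaling between libraries. The sum was 18113 ± 6724 CPM in KO MTE, 34449 ± 5565 CPM in WT MTE, 33201 ± 1625 CPM in KO Sham and 55746 ± 7346 CPM in WT Sham (SD). It spanned 12475 to 27454 CPM in KO MTE against 26765 to 39145 CPM in WT MTE, and 31325 to 34165 CPM in KO Sham against 49115 to 65404 CPM in WT Sham, so the genotypes overlapped in MTE and not in Sham. The 7 genes held 1.46% to 6.26% of all counts of a library.

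**Figure D3:**
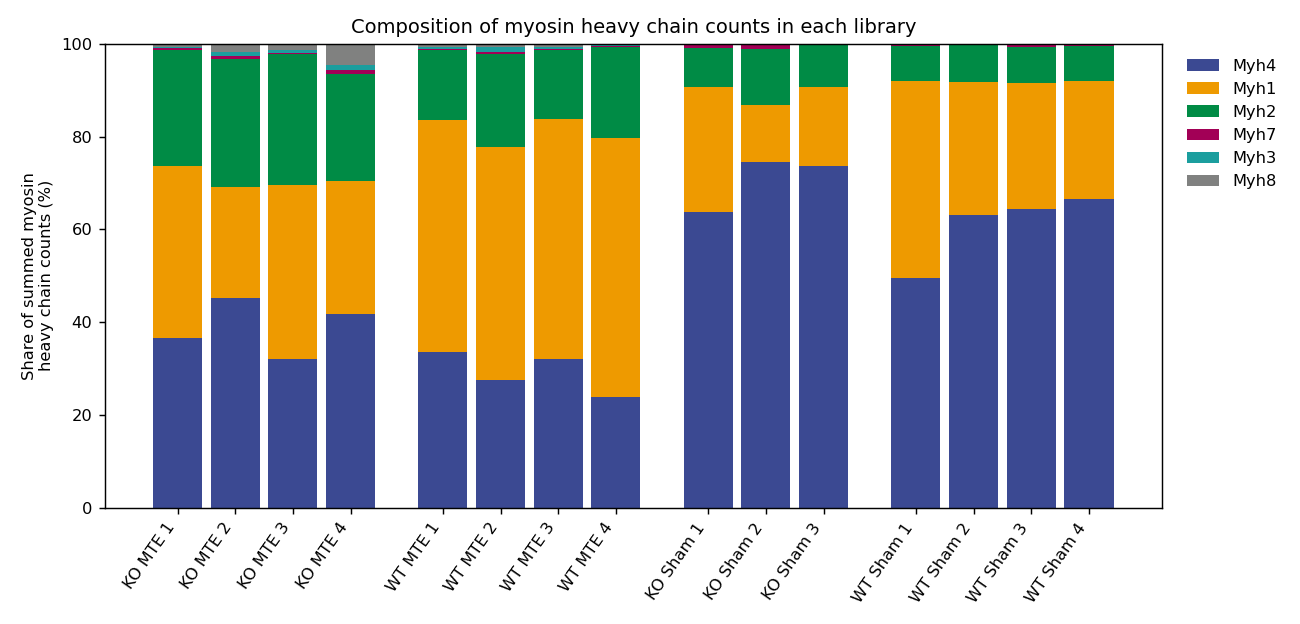
Share of Myh4, Myh1, Myh2, Myh7, Myh3 and Myh8 in the summed counts of the 7 coding genes (percent) in each of 15 libraries, 1 stacked bar per library; Myh7b, at most 0.0125% in any library, is too small to see. Myh4 holds 49.6% to 74.4% in Sham and 23.8% to 45.2% in MTE.

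Myh4 held a smaller share in MTE than in Sham in both genotypes. Myh1 then held the largest share in all 4 WT MTE libraries, whereas in KO MTE the largest was Myh1 in 2 libraries and Myh4 in the other 2. In WT, Myh4 had a mean share of 29.2% ± 4.40 in MTE and 61.0% ± 7.72 in Sham, while Myh1 had 52.0% ± 2.78 in MTE and 30.9% ± 7.82 in Sham and Myh2 had 17.4% ± 2.80 and 7.75% ± 0.217 (SD, n = 4 each). For all 3 the groups did not overlap, and each exact two-sided permutation test gave p = 0.0286, the smallest that 70 arrangements of 4 against 4 allow.

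In KO, Myh4 had a share of 38.9% ± 5.75 in MTE and 70.6% ± 5.97 in Sham, Myh2 had 26.0% ± 2.35 and 9.86% ± 1.85, and Myh1 had 31.8% ± 6.63 and 18.8% ± 7.36 (SD, n = 4 and 3). Myh4 and Myh2 did not overlap between MTE and Sham, and their exact permutation p was 0.0571. With p taken as the smaller tail times 2, this is the lowest value that the 35 arrangements of 4 against 3 can give. The groups overlapped for Myh1 (exact permutation p = 0.114).

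Between genotypes in MTE, the Myh1 share was 36.9%, 23.9%, 37.5% and 28.7% in KO MTE against 50.003%, 50.1%, 51.8% and 56.0% in WT MTE. The Myh2 share was 25.03%, 27.6%, 28.3% and 23.2% in KO MTE against 15.1%, 20.2%, 14.9% and 19.5% in WT MTE. KO MTE was lower for Myh1 in every library and higher for Myh2 in every library, with differences of -20.2 and 8.61 percentage points (exact permutation p = 0.0286 each, the smallest possible). Myh4 made up 9.69 points more in KO MTE, with overlapping groups (exact permutation p = 0.0571).

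In Sham, the Myh2 share was 8.57% to 12.0% in KO against 7.55% to 8.02% in WT, without overlap (2.11 points; exact permutation p = 0.0571, the lowest with this tail rule). Myh1 and Myh4 differed by -12.1 and 9.67 points with overlapping groups (exact permutation p = 0.114 and 0.171). Myh7 held 0.574% ± 0.274 in KO MTE, 0.289% ± 0.121 in WT MTE, 0.584% ± 0.383 in KO Sham and 0.304% ± 0.153 in WT Sham, and none of its 4 tests passed. Myh8 averaged 2.05% ± 1.70 in KO MTE and 0.540% ± 0.223 in WT MTE, and 0.0897% ± 0.0755 in KO Sham and 0.0278% ± 0.0106 in WT Sham.

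Of the 16 share tests 5 had an unadjusted p under 0.05, and after adjustment over the 16 tests none did (lowest adjusted p = 0.0914). Shares sum to 100%, so a change of 1 gene moves the others. Counting error is small beside the spread between libraries: the 95% Wilson interval of a library's share was at most 0.254 points wide, and it covers counting error only.

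Ratios within a library restate the same counts with no sum over genes, and are no independent support for the shares. The pairs were chosen after the values were seen and have no test. The count ratio of Myh2 to Myh1 was 0.678, 1.16, 0.753 and 0.808 in KO MTE against 0.303, 0.403, 0.288 and 0.348 in WT MTE, and 0.319, 0.962 and 0.529 in KO Sham against 0.179, 0.281, 0.289 and 0.297 in WT Sham. KO libraries lay above the WT libraries of the same surgery throughout. The ratio of Myh8 to Myh3 was 2.26, 2.36, 2.85 and 3.98 in KO MTE against 0.955, 0.844, 1.25 and 1.08 in WT MTE. It was 0.757, 5.72 and 1.71 in KO Sham against 0.412, 0.467, 0.288 and 0.278 in WT Sham. It was again higher in every KO library than in every WT library of the same surgery, with the widest spread in KO Sham.

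**Figure D4:**
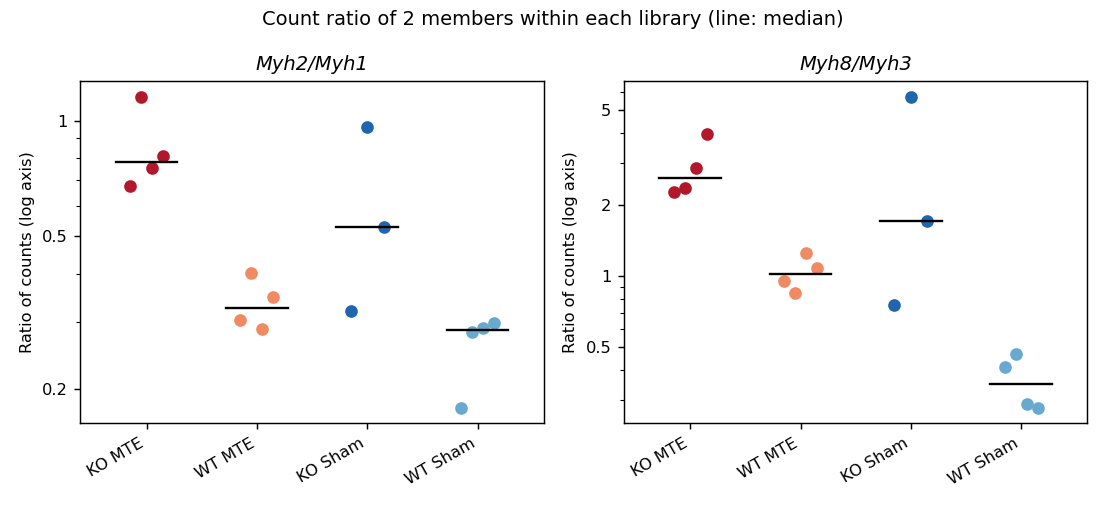
Count ratio of Myh2 to Myh1 and of Myh8 to Myh3 in each library on log axes, with a line at the group median. KO MTE lies at 0.678 to 1.16 and 2.26 to 3.98, above WT MTE at 0.288 to 0.403 and 0.844 to 1.25, and KO Sham lies above WT Sham.

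Other genes of the same biology were read from lists. Beside their counts stand the shares over all genes tested. Under overload 13.2% rose and 12.7% fell in KO, and 14.1% rose and 11.2% fell in WT. Between genotypes 1.47% were called in MTE and 0.511% in Sham. Of 13 regulators of the fast programme, 6 fell in KO MTE against KO Sham and 8 fell in WT MTE against WT Sham, and 0 rose in either; the median log2 fold change was -0.67 in both. They included Eya1, a coactivator of homeodomain factors (-0.89 in KO; -1.27 in WT), Six4 (-0.97; -0.98), Tbx15, a T-box factor of glycolytic fibres (-1.05; -0.98), and Sox6, a repressor of slow genes (-1.12; -1.26). None was called between genotypes. Of 10 fast fibre genes 4 fell in KO and 6 in WT, led by Myoz1, a Z-disc protein (-0.65 in KO; -1.21 in WT), Pvalb, a calcium buffer (-1.48; -1.62), Atp2a1, the fast calcium pump (-0.996; -1.33), and Tnnt3, fast troponin T (-0.60; -0.82).

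Of 22 regulators of the slow and oxidative programme, 2 rose and 4 fell in KO, and 2 rose and 1 fell in WT. Over all genes tested 25.9% were called in KO and 25.3% in WT, so these counts were near that share in KO and below it in WT. Rcan1, a calcineurin target, rose in both (1.33 in KO; 1.52 in WT), as did Nfatc4 (1.04; 1.44), and Ppp3cb, a catalytic subunit of calcineurin, fell in both (-0.83; -0.99). Of 10 slow fibre genes 5 rose in KO MTE against KO Sham and 4 in WT MTE against WT Sham, though Myh7 was not called in either. On the log2 scale Tnnc1, slow and cardiac troponin C, rose by 3.68 in KO and 2.14 in WT, and Tnni1, slow troponin I, by 3.45 and 1.75. Casq2, a calsequestrin, rose by 1.03 and 1.13, and Sln, sarcolipin, by 1.79 in WT.

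Between genotypes in MTE, 3 of the 10 slow fibre genes were higher in KO: Tnnt1, slow troponin T (2.80; adjusted p = 0.0053), Tnnc1 (2.19; adjusted p = 0.0146) and Casq2 (0.99; adjusted p = 0.0152). In Sham, Casq2 alone of the list was called (1.096; adjusted p = 0.0231). Myh7 had log2 fold changes of 0.06 in MTE and 0.21 in Sham, with adjusted p of 0.976 and 0.928. The slow list is also made by the neighbouring soleus muscle, and a part for soleus tissue in these libraries was not tested.

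Of 11 genes of immature and regenerating fibres 9 rose in KO and 8 in WT beside Myh3 and Myh8, with median log2 fold changes of 3.33 and 2.10. They included Myl6b, a myosin light chain (4.64 in KO and 3.50 in WT), and Tnnt2, the cardiac and embryonic troponin T (3.33 and 2.69). Myog, myogenin (2.22 and 2.04), and Ncam1, an adhesion protein of immature and denervated fibres (2.05 and 1.56), were also among them. In MTE, Chrng and Chrna1, subunits of the acetylcholine receptor, were higher in KO than in WT (3.23 and 2.02; adjusted p = 0.0445 and 0.0286).

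Partners of the thick filament moved both ways. Of 12 tested, 2 rose and 3 fell in KO, and 1 rose and 4 fell in WT. Myom3, an M-band protein, rose (1.53 in KO; 1.31 in WT), while the M-band genes Myom2 (-0.82; -0.87) and Myom1 (-0.84; -0.97) and Trim55, a ubiquitin ligase of the sarcomere (-0.42; -0.66), fell. Myom3 and Trim55 were higher in KO MTE than in WT MTE (0.86 and 0.69; adjusted p = 0.0425 and 0.0234). Of 7 myosin folding factors, 1 rose and 0 fell in KO, and 1 rose and 1 fell in WT: the chaperone Hsp90aa1 rose (0.65; 0.91), and Unc45b, the muscle myosin chaperone, fell in WT (-0.63) and had -0.04 in KO.

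Of 6 other myosin heavy chains, the nonmuscle genes Myh9 (1.71 in KO; 1.45 in WT) and Myh10 (1.51; 1.25) rose in both genotypes. Myh13, the extraocular gene at the end of the chromosome 11 cluster, fell in WT (-1.92; -1.21 in KO, not called), as did Myh6, the cardiac neighbour of Myh7 (-1.30; -0.59 in KO, not called). The microRNA genes hosted by Myh6, Myh7 and Myh7b were not among the genes tested.

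The 3 genes outside the set with the highest Pearson r over log2 CPM of the 15 libraries were taken for each member as a description. For Myh4 they were Arrdc2 (0.974), Pgp (0.966) and Gm43672 (0.964), for Myhas Stat5b (0.970), Gm12319 (0.968) and Gpd2 (0.965), for Myh3 Fyn (0.951), Lpcat1 (0.939) and Plp2 (0.937), and for Myh8 Spats2 (0.963), Pnmal2 (0.957) and Cited1 (0.955). They were Vrk1 (0.908), Gm47898 (0.905) and Sgk1 (0.895) for Myh1, and Lgi2 (0.858), Cxcl1 (0.853) and Smim41 (0.846) for Myh2. For Myh7 they were Hirip3 (0.868), Ubox5 (0.815) and Myl3 (0.807), the slow light chain, and for Myh7b they included Srebf1 (0.923) and St3gal3 (0.914). Within the set, Myh7 and Myh7b had an r of 0.748, Myh3 and Myh8 of 0.743, and Myh4 and Myh8 of -0.913. The libraries share groups, depth and surgery, so these values do not stand for independent samples.

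Besides Myhas, the cluster holds 2310065F04Rik, named linc-Myh in RefSeq (chr11:67112461-67120080), between Myh3 and Myh2, and 9430073C21Rik (chr11:67195680-67199234), which starts 818 bases before Myh1 and runs back over the last 1838 bases of the Myh2 span. Both are noncoding and on the minus strand, and both were taken up for their position after their values were seen. 9430073C21Rik had 1.75, 1.18, 3.02 and 2.30 CPM in KO MTE against 5.34, 5.63, 5.14 and 9.13 CPM in WT MTE, and 1.68, 1.70 and 3.19 CPM in KO Sham against 9.18, 8.61, 6.67 and 6.22 CPM in WT Sham. As with Myh1, all 7 KO libraries lay below all 8 WT libraries. The log2 fold change was -1.61 ± 0.31 in MTE (adjusted p = 0.0157) and -1.84 ± 0.35 in Sham (adjusted p = 0.0292). Overload gave -0.06 ± 0.34 in KO and -0.28 ± 0.30 in WT, neither called.

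Leaving out some single libraries ended the calls of 9430073C21Rik, while the differences kept their direction. In MTE the log2 fold change was -1.42 without KO MTE 2 (adjusted p = 0.0638) and -1.38 without WT MTE 4 (0.0533). In Sham it was -1.68 without KO Sham column 1 or without column 2 (adjusted p = 0.162 and 0.144), -1.78 without WT Sham 2 (0.0776), -1.90 without WT Sham 3 (0.0632) and -1.84 with only the Sham libraries in the fit (0.17). Its reads may also be mixed with those of Myh2 if the counting ignored strand.

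2310065F04Rik had 2.82, 1.96, 3.23 and 2.76 CPM in KO MTE against 5.22, 10.4, 7.42 and 9.44 CPM in WT MTE, and 5.11, 3.52 and 8.88 CPM in KO Sham against 14.1, 63.5, 30.2 and 30.3 CPM in WT Sham. KO lay below WT within each surgery, and MTE lay below Sham within each genotype. It fell in WT MTE against WT Sham (-2.09 ± 0.39; adjusted p = 0.00178) and was lower in KO Sham than in WT Sham (-2.58 ± 0.45; adjusted p = 0.0184). In KO MTE against KO Sham the log2 fold change was -1.10 ± 0.42 and was not called in edgeR (adjusted p = 0.0666). DESeq2 called it (adjusted p = 0.0287), and over the alternative fits its adjusted p ran from 0.0254 to 0.327. The difference in Sham was -2.50 without KO Sham column 1 (adjusted p = 0.111), -2.32 without column 2 (0.118) and -2.59 with only the Sham libraries (0.263), and was not called in these fits. In MTE the genotype difference was -1.595 ± 0.40 (adjusted p = 0.0654), which passed without WT Sham 1 (0.0173), WT Sham 2 (0.0293) or KO Sham column 3 (0.0477).

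**Figure D5:**
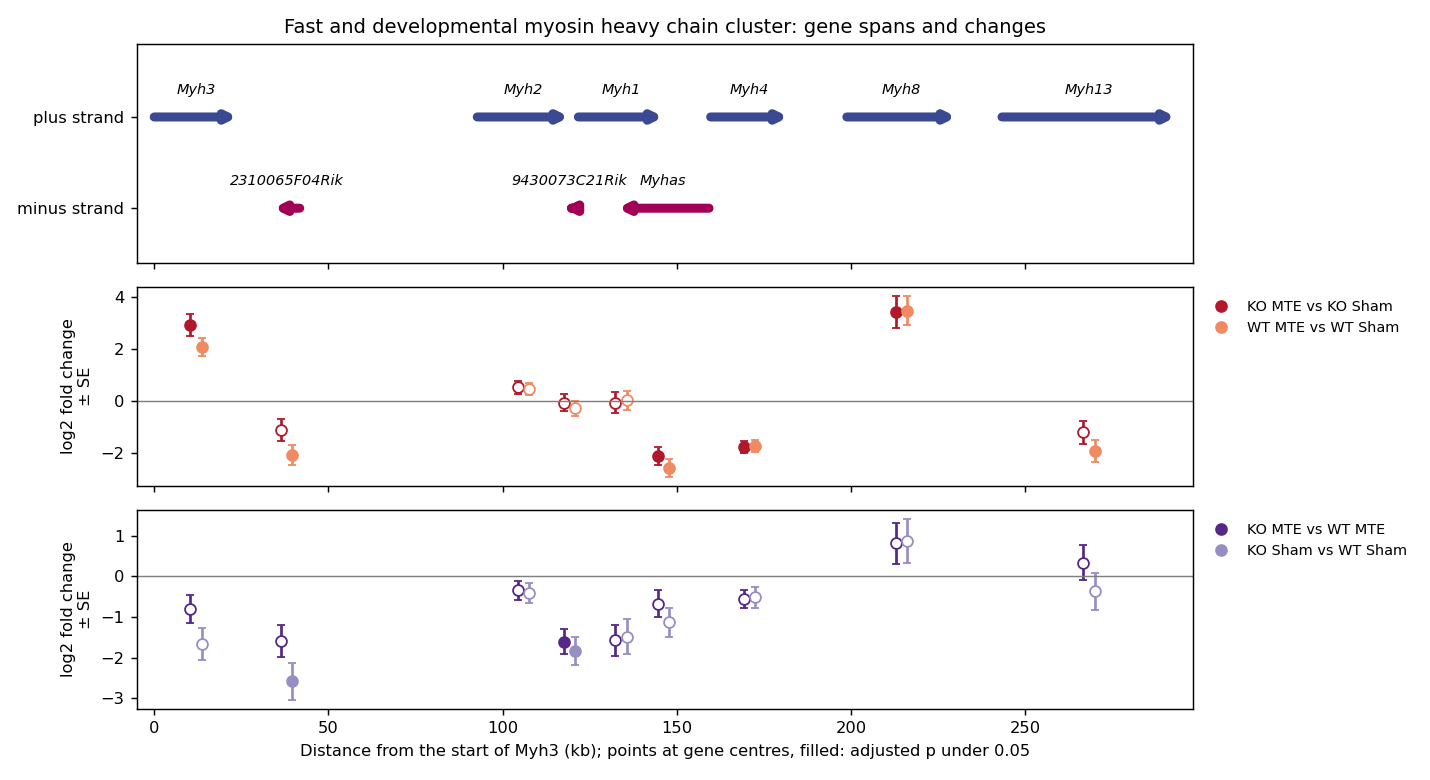
Gene spans of the chromosome 11 cluster by distance from the start of Myh3 (kb) and strand (top), and log2 fold changes with SE for overload (middle) and genotype (bottom), at gene centres, filled where the adjusted p was under 0.05. Under overload Myh3 and Myh8 lie well above 0 and Myhas and Myh4 below it, and in the genotype comparisons 9430073C21Rik is filled in both and 2310065F04Rik in Sham.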

How the data were processed

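RNA of plantaris muscle was sequenced in libraries from a stranded kit, with ribosomal RNA removed. The authors deposited estimated counts per gene (expected counts; 90.9% of the values were whole to within 0.01). STAR, RSEM, edgeR and the build GRCm38 are named in the submitters' processing notes, without roles or versions. The authors also deposited log2 values relative to WT Sham and p-values (a 2-way analysis of variance, and FDR-adjusted p-values for pairs of groups), per the file headers. In that table the FDR columns of WT MTE vs KO MTE and of WT sham vs WT MTE were equal in all 17217 genes, so neither was used. The authors' log2 values of the members per library differed by a median of 0.000135 from log2 CPM computed here relative to the log2 of the WT Sham mean, and by 0.0353 when the WT Sham log2 values were averaged instead.

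The labels list 16 samples and 15 libraries were analysed here, with 21.1 M to 69.2 M counts each. The tests were planned for 16 samples and run on 15. The 3 KO Sham columns could not be tied to particular ones of 4 labelled samples, and they carry no number that pairs them. Libraries of 1 group differed by more than sampling noise. Nothing in the labels says that each library is a separate animal, so the p-values reflect variation among libraries, which may be technical.

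Counts were rounded, filtered with filterByExpr by group, scaled by TMM and fitted with 4 group means over 15 libraries (edgeR 4.0.16, robust quasi-likelihood test, R 4.3.3), and p-values were adjusted by Benjamini-Hochberg over 17212 genes. The SE was derived from the F statistic of each contrast. Log2 CPM used a prior count of 2. Shares were compared by exact two-sided permutation tests (SciPy 1.17.1), with p as the smaller tail times 2. The fit was tested on simulated data. Alternatives were DESeq2 1.42.0, limma voom (limma 3.58.1), other size factors and filters, a replicate block and left-out libraries.

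The members and lists were chosen with earlier results of these data known. All 8 members are named. From each list, at most 4 genes called in WT MTE vs WT Sham with the smallest adjusted p are named, with every gene called between genotypes, and for each member the 3 genes outside the set with the highest r, of which 1 is not reported here.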

Additional observations from a re-analysis of the deposited data

Results flagged for a closer look

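Among the members' CPM and shares, 36 groups of 4 libraries were examined for a library whose gap to its nearest neighbour filled most of the range, and 3 were found, where chance gives about 1 in 20 groups. Myh4 in KO MTE had a gap of 0.936 of the range: KO MTE 1 had 10062 CPM and the other 3 libraries 5644 to 5928 CPM. Myh4 in WT Sham had a gap of 0.867: WT Sham 2 had 36281 CPM and the others 32413 to 32926 CPM. Myh8 in WT MTE had a gap of 0.876: WT MTE 4 had 87.3 CPM and the others 201 to 217 CPM. WT MTE 4 was also the lowest WT MTE library for Myh3 (80.7 CPM), Myh7b (0.990 CPM) and Myhas (0.723 CPM) and the highest for Myh1 (21185 CPM) and Myh2 (7378 CPM). The calls of Myh4 and Myh8 under overload held without each of these libraries.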

How the results depend on the processing

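The overload calls of Myh4, Myhas, Myh3 and Myh8 kept their direction and their call in all 24 alternatives in WT and all 22 in KO. Their log2 fold changes ran from -2.01 to -1.68 in KO and -1.88 to -1.61 in WT for Myh4, -2.34 to -1.71 and -2.77 to -2.37 for Myhas, 2.66 to 3.44 and 1.91 to 2.33 for Myh3, and 2.86 to 4.32 and 3.30 to 3.75 for Myh8. The genotype difference of Myh1 was negative in every alternative run.

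Counts of called genes moved more. For KO MTE vs WT MTE, 253 genes were called, 654 with DESeq2, 575 with only the groups compared, 833 without WT Sham 1 and KO Sham column 3 together, and 92 (without KO MTE 2) to 412 (without WT Sham 1) with 1 library left out. For KO Sham vs WT Sham, 88 were called, 278 with DESeq2, 6 with only the groups compared, 236 without both libraries, and 39 (without column 2) to 98 with 1 left out. For KO MTE vs KO Sham, 4454 were called, and 2231 (without column 3; 2874 without KO MTE 2) to 5854 with 1 left out. For WT MTE vs WT Sham, 4355 were called, 7656 without both libraries, and 3019 to 6695 (without WT Sham 1) with 1 left out. For the interaction, 0 were called, 10 with DESeq2, 1 without both libraries, and 0 to 1 (without KO MTE 1) with 1 left out. The cause of these shifts was not tested.

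No member was called between genotypes in edgeR with 15 libraries. In MTE, 1 member, Myh1, was called lower with DESeq2, with limma voom, with only the groups compared and without both libraries, and 0 to 1 with 1 library left out. In Sham, 2 members were called lower with DESeq2 (Myh1 and Myh3), 1 without both libraries (Myhas), and 0 to 1 with 1 left out (Myh3, without WT MTE 4).

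With the replicate number as a block, 1 member was called lower in KO MTE vs WT MTE, Myh1, at -1.71 (edgeR's quasi-likelihood test; adjusted p = 0.0196), and Myh7 and Myh7b turned to -0.022 and -0.10. Deviations of same-numbered libraries correlated at -0.11 to 0.46, not all of them over 0.1. The pairs of number 1 had the highest values (0.314, 0.286 and 0.458). Libraries of different numbers were not compared in this way, so whether the number marks a pair or a batch was not tested.

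The signs of uncalled values turned as follows on the log2 scale. Myh1 in WT MTE vs WT Sham was -0.034 with DESeq2 and with its size factors, -0.0033 with at least 1 CPM in 8 libraries, -0.0062 with only the groups compared, and -0.11 to 0.29 with 1 library left out, and in KO MTE vs KO Sham it was -0.44 to 0.31. In KO Sham vs WT Sham, Myh7 was -0.0051 with limma voom and -0.17 to 0.66 with 1 left out, Myh7b was 0.26 without both libraries and -0.57 to 0.084 with 1 left out, and Myh8 was -0.011 to 1.17. In KO MTE vs WT MTE, Myh7 was -0.10 and Myh7b -0.15 with limma voom, and with 1 left out they were -0.26 to 0.34 and -0.35 to 0.27. Interactions without both libraries were -0.012 for Myh2, 0.067 for Myh4 and -0.23 for Myh7b. With 1 left out they were -0.46 to 0.28 for Myh1, -0.17 to 0.21 for Myh2, -0.28 to 0.12 for Myh4, -0.60 to 0.23 for Myh7, -0.12 to 0.59 for Myh7b and -0.64 to 0.83 for Myh8. For 9430073C21Rik, KO MTE vs KO Sham was 0.27 without both libraries and -0.31 to 0.28 with 1 left out, and its interaction was -0.022 to 0.57.

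Share differences in percentage points kept their direction, except for Myh7. In WT MTE vs WT Sham without WT Sham 1 they were 24.9 for Myh1, 9.62 for Myh2 and -35.5 for Myh4, and with 1 library left out 19.3 to 24.9, 8.76 to 10.5 and -35.5 to -29.9. In KO MTE vs WT MTE with 1 left out they were -22.1 to -17.6 for Myh1 and 7.76 to 9.55 for Myh2. The exact permutation p of these was 0.0571, the lowest that 3 against 4 gives when the smaller tail is taken times 2. The Myh7 difference in KO MTE vs KO Sham was 0.0108 per length and 0.0079 with only the 4 adult genes in the sum, and with 1 left out it was -0.224 to 0.146 in KO and -0.0756 to 0.0477 in WT. An exact test of the absolute difference, chosen after seeing the data, gave p = 0.0286 for Myh2 (16.2) and Myh4 (-31.7) in KO MTE vs KO Sham and for Myh2 (2.11) in KO Sham vs WT Sham.

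Depth limits Myhas and Myh7b, with as few as 19 and 14 counts in a library.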

Other observations

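The ratio of Myhas counts to Myh4 counts, taken within each library and chosen after the values were seen, needs no scaling between libraries. It ran from 0.000125 to 0.000164 in KO MTE and from 8.01e-05 to 0.000261 in WT MTE. In Sham it ran from 0.000134 to 0.000258 in KO and from 0.000194 to 0.000338 in WT. The ranges overlapped between MTE and Sham in each genotype and between genotypes in each surgery. The lowest ratio, that of WT MTE 4, rests on 19 Myhas counts.

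The 2 sarcomeric genes at the edges of the set were at low levels. Myh13, the extraocular gene, had 2.21 to 6.68 CPM in KO MTE, 0.951 to 3.98 CPM in WT MTE, 6.31 to 9.54 CPM in KO Sham and 6.08 to 13.9 CPM in WT Sham. Myh6, the cardiac alpha gene, had 0.852 to 3.61 CPM in KO MTE, 1.56 to 1.97 CPM in WT MTE, 1.53 to 4.12 CPM in KO Sham and 3.93 to 4.60 CPM in WT Sham. Neither was called between genotypes (edgeR's quasi-likelihood test; lowest adjusted p = 0.653).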
